A study of Mus musculus with 20 samples.

Results

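The genes described are the vascular endothelial growth factor (VEGF) axis of the outer eyecup with its best known opponent, pigment epithelium-derived factor (PEDF). They are the ligands *Vegfa*, *Vegfb*, *Vegfc* and *Pgf*, the receptors *Flt1*, *Kdr*, *Flt4* and *Nrp1*, and *Serpinf1*, which encodes PEDF. The members were chosen by gene symbol, and all 9 were found among the 24411 genes of the expression table and among the 18807 genes with enough reads to test. RNA of the RPE-choroid (the retinal pigment epithelium, RPE, with the vascular choroid behind it) was sequenced from mice labelled C57BL/6 (C57BL/6J for the *Stra6-/-* line by the study's methods) in 4 groups of 5 samples. WT mice came from a commercial supplier and *Stra6-/-* mice, which lack the retinol transporter STRA6 in every tissue, were bred in the study's own colony. All of them were raised on chow until weaning and then kept for 12 weeks on a vitamin A sufficient (VAS) diet with 4 IU vitamin A per g or a vitamin A deficient (VAD) diet with 0 IU per g, which gave the groups VAS WT, VAD WT, VAS *Stra6-/-* and VAD *Stra6-/-*. By the study's methods each sample held both eyecups of 1 mouse after the anterior segment was removed and the retina peeled off with dispase, and p-values measure the spread between the samples of a group. Values are gene counts divided by 1 size factor per sample, called normalized values here, and they rest on 13331903 to 21878614 reads per sample.

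In the back of the eye the RPE secretes VEGF-A towards the choroid, where it keeps the fenestrated choriocapillaris alive and open, and it secretes PEDF, a serpin that restrains vessel growth, mainly towards the retina. VEGF-A acts on endothelial cells through the tyrosine kinase receptor encoded by *Kdr*, while the receptor encoded by *Flt1* binds VEGF-A, VEGF-B and placental growth factor tightly and, as a soluble form, traps them. VEGF-C acts through the receptor encoded by *Flt4*, typical of lymphatic and some fenestrated vessels, and *Nrp1* encodes neuropilin-1, a co-receptor that also binds class III semaphorins and is made by many cells besides endothelium.

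Several libraries departed from their group or carried transcripts of both sexes, which bears on every value below. *Stra6* itself had normalized values of 2414 to 2742 in VAS WT, 564 to 694 in VAS *Stra6-/-* and 1973 to 2393 under the VAD *Stra6-/-* label. By the study's account STRA6 is abundant in the RPE. The summed value of 15 RPE markers was 595747 to 642878 under the VAD *Stra6-/-* label. That sum was 139790.2 to 156466 in VAS WT and 155158 to 162632 in VAS *Stra6-/-*. The plain *Stra6* value therefore does not check the VAD *Stra6-/-* label. In VAD WT *Stra6* was at 669 to 697 in replicates 1, 3 and 5, overlapping the range of VAS *Stra6-/-* and far below VAS WT. It was at 1340.1 to 1529 in replicates 2 and 4. The RPE marker sum was also below VAS WT, at 45482 to 47991 in replicates 1, 3 and 5 and 89014 to 91589 in replicates 2 and 4. The plain *Stra6* value thus does not check the label of VAD WT either, and *Stra6* relative to RPE markers was not tested. *Xist*, expressed in females, was at 7.69 to 38.4 in VAS WT and 15320.2 to 18052 in VAS *Stra6-/-*, and the Y-linked *Ddx3y* at 981 to 1193 and 0 to 1.02, so the VAS comparison of genotypes was also one of sexes, and the 2 cannot be told apart. The libraries labelled VAD *Stra6-/-* carried both transcripts, with *Xist* at 3569.8 to 4279.6 and *Ddx3y* at 741 to 969.7, which the RNA of a single male or female mouse does not combine, so whether each of these samples is 1 mouse is uncertain. Within VAD WT, replicates 1, 3 and 5 had *Ddx3y* at 1041 to 1133 and *Xist* at 174 to 234. Replicates 2 and 4 instead had *Xist* at 10912 and 11767 and *Ddx3y* at 75.2 to 80.5. The lower value of each set was above the VAS group of the same main sex, at most 38.4 for *Xist* and 1.02 for *Ddx3y*. Its source was not tested, so 1 mouse per sample is uncertain here too. Because of this split, values for VAD WT are also given without replicates 2 and 4 wherever these changed a call or a direction or moved a called value by over 1.5 times. Sex thus also differed in the diet comparison under the *Stra6-/-* label, in the interaction and in comparisons with all 5 VAD WT libraries. Fits without VAD WT replicates 1, 3 and 5 set libraries high in *Xist* against VAS WT libraries that express *Ddx3y*. In none of these can sex be told apart from genotype or diet.

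The cell types that could carry these transcripts were followed with lists of marker genes, none of which was at 0 in every library of a group. The summed normalized value of 15 RPE markers was 139790.2 to 156466 in VAS WT, 155158 to 162632 in VAS *Stra6-/-*, 45482 to 91589 in VAD WT and 595747 to 642878 in the libraries labelled VAD *Stra6-/-*. For 16 endothelial markers the sums were 18648 to 20052, 17399 to 18575, 12474 to 29493 and 21859 to 22752 in the same order of groups. RPE marker RNA thus differed far more between the groups than endothelial marker RNA. In VAD WT the endothelial sum was 28153 to 29493 in replicates 2 and 4 and 12474 to 13441 in the other 3. The 8 scleral fibroblast markers summed to 41099 to 43655 in VAS WT, 41101 to 42345 in VAS *Stra6-/-*, 47819.6 to 153991 in VAD WT and 200401 to 211433 in the libraries labelled VAD *Stra6-/-*, and the 6 macrophage markers to 5244 to 5460.2, 4712 to 5104, 3892 to 4444 and 13208 to 14011. The 10 markers of surface epithelium (cornea and conjunctiva), foreign to an RPE-choroid preparation, summed to 699987 to 825828, 932960.1 to 967145, 416955 to 1117833 and 28079.9 to 37532. In bulk tissue, more cells of a type and more RNA per cell cannot be told apart. Apart from the marker ratios given below, the part of these shifts in the results was not tested.

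Divided by the length of each gene's exons, *Serpinf1* had the highest level of the 9 genes in every group and *Vegfa*, *Vegfb* and *Pgf* stood above the tyrosine kinase receptors, as the plot of levels per kb shows. In VAS WT the level per kb was 2028 ± 105 (SD, n = 5) for *Serpinf1*, above 97.9% of 17973 genes with a known length. *Vegfb*, which acts only through *Flt1* and neuropilins, followed at 1093 ± 93.0 per kb and *Vegfa* at 629 ± 45.0, while *Nrp1* and *Pgf* stood at 355 ± 30.5 and 309 ± 42.2. *Kdr* (75.7 ± 6.97), *Vegfc* (60.8 ± 10.03), *Flt1* (43.3 ± 7.88) and *Flt4* (27.7 ± 3.86) were the lowest per kb. In the libraries labelled VAD *Stra6-/-* the *Vegfa* level per kb was 1209 ± 66.3 and approached that of *Vegfb*, 1446 ± 104, and *Serpinf1* reached 10977 ± 760.4, above 99.7% of the genes.

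**Figure D1:**
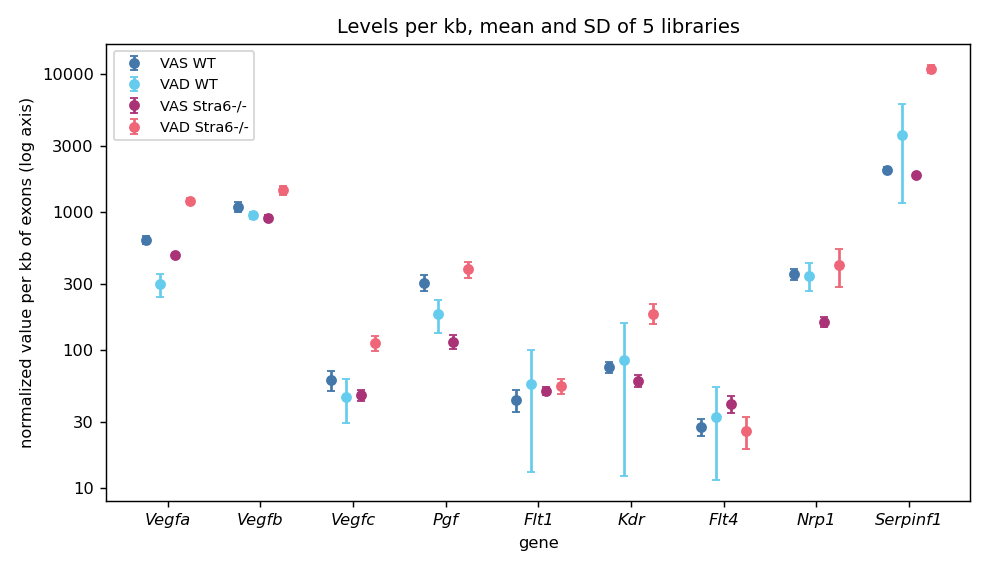
Normalized value per kb of exons (log axis) for the 9 genes in the 4 groups. Points are means and bars SD of 5 libraries. *Serpinf1* is the highest and *Flt4* the lowest in each group, and the bars of VAD WT are widest for *Flt1*, *Kdr*, *Flt4* and *Serpinf1*.

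In GRCm38 (GENCODE vM21) the ligand genes lie at chr17:46016993-46032369 (*Vegfa*), chr19:6982473-6987651 (*Vegfb*), chr8:54077606-54187096 (*Vegfc*) and chr12:85166635-85177790 (*Pgf*), the receptor genes at chr5:147561604-147726011 (*Flt1*), chr5:75932827-75978458 (*Kdr*), chr11:49609263-49652739 (*Flt4*) and chr8:128358604-128503363 (*Nrp1*), and *Serpinf1* at chr11:75409769-75422701. The start regions of *Vegfa*, *Serpinf1* and *Kdr*, on which the results turn, are shown because the pathway is known for control by hypoxia-inducible factors, which bind an ACGTG or GCGTG core, and vitamin A acts through nuclear receptors of retinoic acid, which bind repeats of AGGTCA and its variants GGGTCA and GGTTCA. Sequences were taken from RefSeq in GRCm38.p6, 5′ to 3′ on the strand of the gene, and only the bases before the first annotated base of the gene are printed. All 3 genes lie on the minus strand, the stretches being chr17:46032378-46032627 for *Vegfa*, chr11:75422702-75422873 for *Serpinf1* and chr5:75978459-75978705 for *Kdr*. Capitals mark a match to any of the 5 motifs on either strand, overlapping matches being merged.
Vegfa: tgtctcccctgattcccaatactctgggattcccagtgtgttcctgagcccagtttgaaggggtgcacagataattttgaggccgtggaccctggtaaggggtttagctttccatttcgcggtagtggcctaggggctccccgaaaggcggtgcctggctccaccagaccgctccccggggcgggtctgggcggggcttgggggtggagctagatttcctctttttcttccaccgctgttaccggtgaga
Serpinf1: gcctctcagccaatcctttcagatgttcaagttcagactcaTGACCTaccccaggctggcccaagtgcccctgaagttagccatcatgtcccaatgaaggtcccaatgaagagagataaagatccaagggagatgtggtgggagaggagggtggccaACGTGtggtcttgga
Kdr: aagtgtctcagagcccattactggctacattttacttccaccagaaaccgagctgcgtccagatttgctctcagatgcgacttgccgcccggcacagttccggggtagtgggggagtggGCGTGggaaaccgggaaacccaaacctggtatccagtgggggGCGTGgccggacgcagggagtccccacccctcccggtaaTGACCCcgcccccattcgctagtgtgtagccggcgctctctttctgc
The *Vegfa* stretch holds none of the 5 motifs, while the window at another RefSeq start of *Vegfa*, chr17:46025114-46025413, holds 1 ACGTG and 1 GCGTG. The *Serpinf1* stretch holds 1 ACGTG and 1 AGGTCA, and its full window of 300 bases 1 more AGGTCA. *Kdr* has 2 GCGTG and 1 GGGTCA. Among 11 windows of 300 bases at the starts of the 9 genes, ACGTG was found in 2, GCGTG in 6, AGGTCA in 3, GGGTCA in 3 and GGTTCA in 1, against 19.6%, 32.4%, 16.3%, 13.7% and 10.4% of 32851 windows of that length over all genes. A match describes the letters only and is no evidence of binding. Bases further upstream were not searched, so the lack of a match in a window says nothing about them.

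The genotypes on the sufficient diet were compared in VAS *Stra6-/-* against VAS WT. There 4 of the 9 genes were lower and none was called higher at an adjusted p under 0.05 (limma on log2(value + 1), adjusted over 18807 genes), against 10.8% of all genes called lower and 26.6% called in either direction. The ligands *Vegfa*, *Vegfb* and *Pgf* and the co-receptor *Nrp1* fell, and in these 4 the groups did not overlap, as in 13.2% of all genes that were lower in this way. The median log2 fold change of the 9 genes was -0.33 and that of all genes 0.02. Of the markers, 6 of 6 for skeletal muscle were higher, 4 of 16 for endothelium lower and none higher, and of 15 for RPE 1 was higher and 2 lower.

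*Pgf*, placental growth factor, was the most reduced. Its normalized values were 690.1, 1001, 901, 931 and 969 in VAS WT and 366, 363, 287, 296 and 359 in VAS *Stra6-/-*, replicates 1 to 5 each. Every VAS *Stra6-/-* library lay below every VAS WT library. The log2 fold change was -1.42 (SE 0.15, adjusted p = 6.85e-07), SE being the standard error, a fall to under 50% on the scale of the plain values (898 ± 123 against 334 ± 39.3, SD, n = 5). *Nrp1* had values of 3495, 3765, 3669, 3452 and 2992 in VAS WT and 1451, 1688, 1707, 1404 and 1584 in VAS *Stra6-/-*. Here too the groups stood well apart, with a log2 fold change of -1.15 (SE 0.16, adjusted p = 1.28e-05). *Vegfa* moved less, from 2903, 2684, 2643, 2408 and 2837 to 2126, 2009, 2092, 2169.7 and 2091. These ranges came close but did not meet, and the log2 fold change was -0.36 (SE 0.09, adjusted p = 0.00664). *Vegfb* went from 1591 to 1979 to 1367 to 1549, with a log2 fold change of -0.26 (SE 0.07, adjusted p = 0.00718).

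The other members did not pass the test in this comparison. *Vegfc* (149 ± 24.6 in VAS WT and 116 ± 10.3 in VAS *Stra6-/-*, SD, n = 5) had a log2 fold change of -0.35 (adjusted p = 0.297) and *Serpinf1* (4784 ± 249 and 4369 ± 108) one of -0.13 (adjusted p = 0.785). The tyrosine kinase receptors pointed in different directions, with *Kdr* at -0.33 (adjusted p = 0.574), *Flt1* at 0.25 (adjusted p = 0.644) and *Flt4* at 0.55 (adjusted p = 0.200) on the log2 scale. These p-values depended on the libraries that entered the fit, since all groups share 1 estimate of the spread. With only the 2 VAS groups fitted, 8 of the 9 genes were called (43.6% of all genes), the added ones being *Vegfc* (0.0437), *Kdr* (0.00686), *Serpinf1* (0.0158) and, as the only one higher, *Flt4* (0.00369), with the adjusted p in parentheses. Without VAD WT replicates 2 and 4, 6 were called lower and 1 higher (17.5% and 22.5% of all genes), the call of *Vegfc* being absent (0.199). *Flt1* was called in neither (0.124 and 0.0822).

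**Figure D2:**
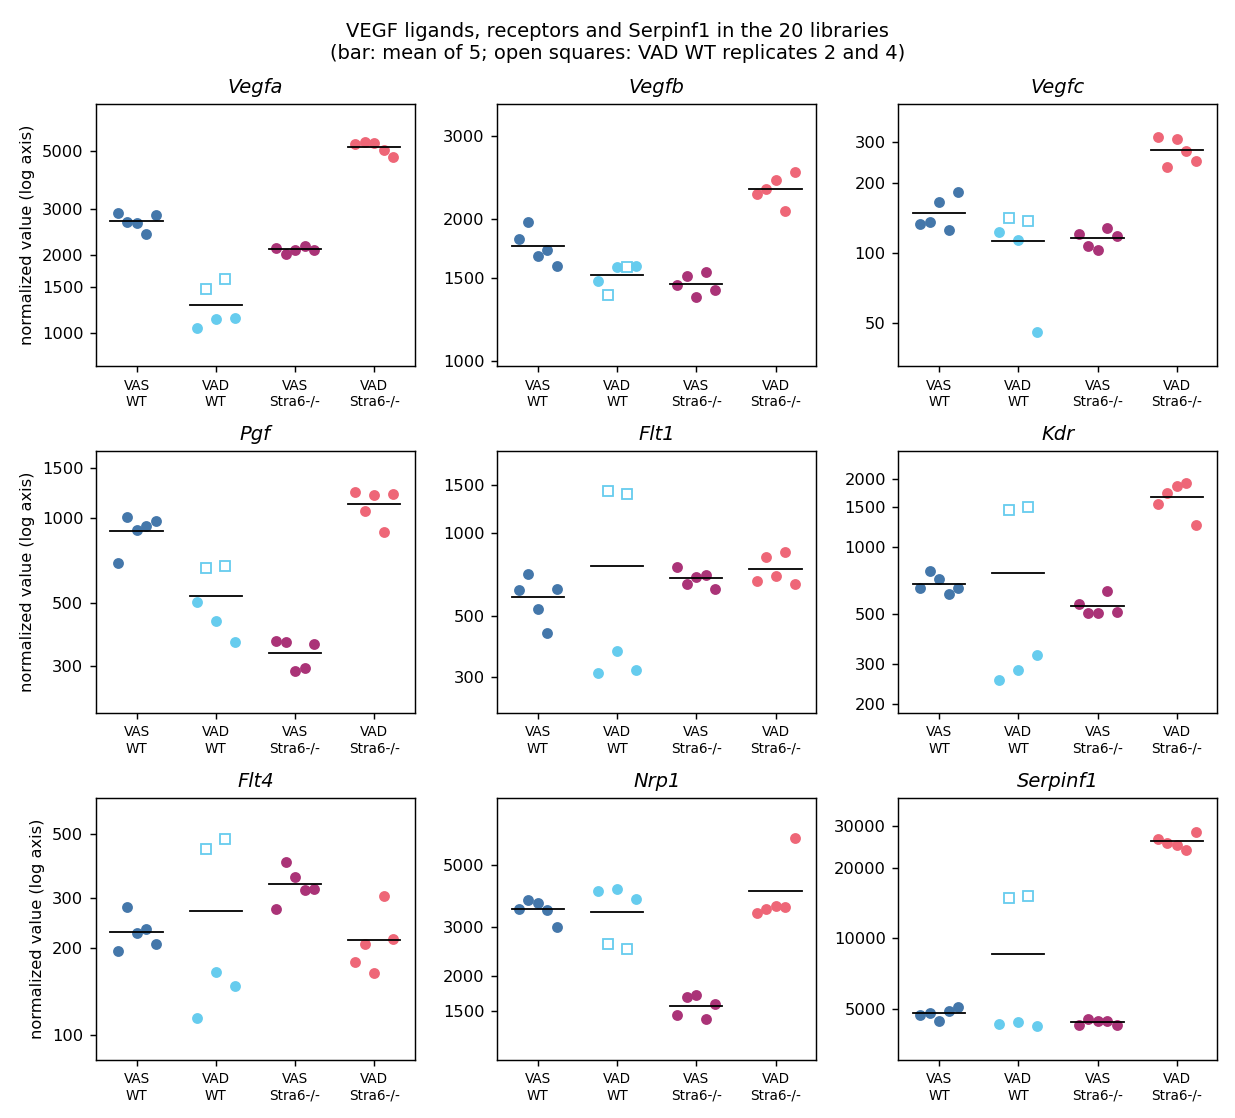
Normalized value (log axis) of each gene in the 20 libraries by group. Points are libraries, bars are means of 5, and open squares are VAD WT replicates 2 and 4. *Vegfa* forms 4 levels that do not overlap, VAD WT being lowest and the libraries labelled VAD *Stra6-/-* highest, and in *Flt1*, *Kdr*, *Flt4* and *Serpinf1* the open squares stand apart from the other VAD WT libraries.

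The diets in WT were compared in VAD WT against VAS WT. *Vegfa* and *Pgf* were lower on the VAD diet and no other member was called, so 2 of 9 genes fell against 5.50% of all genes called lower and 8.78% called at all. The median log2 fold change of the members was -0.20, with 0.0017 for all genes. Both called genes also had groups that did not overlap, as 4.21% of all genes had in that direction. RPE markers were lower in 12 of 15 and fibroblast markers higher in 4 of 8.

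*Vegfa* values in VAD WT were 1052, 1476, 1138, 1613 and 1149, replicates 1 to 5. All of these were under the lowest VAS WT value, and the log2 fold change was -1.08 (SE 0.09, adjusted p = 1.02e-07), or -1.27 without replicates 2 and 4 (adjusted p = 7.46e-13). *Pgf* values in VAD WT were 506, 664, 431, 676 and 363. Its highest value lay just under the lowest of VAS WT, with a log2 fold change of -0.80 (SE 0.15, adjusted p = 0.00168), and -1.05 without replicates 2 and 4 (adjusted p = 2.95e-06). When only the 2 WT groups were fitted, *Pgf* missed the threshold (adjusted p = 0.0525).

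The receptors and *Serpinf1* showed the split within VAD WT most strongly. *Kdr* values in VAD WT were 255, 1458, 281, 1509.8 and 330.2 in replicates 1 to 5, against 653, 777, 717, 618 and 655 in VAS WT. Replicates 2 and 4 stood above, and replicates 1, 3 and 5 below, every VAS WT library. *Flt1* had 312, 1428, 375, 1386 and 318 in VAD WT and 433 to 712 in VAS WT, *Flt4* 114, 444, 166, 480.2 and 148 and 196 to 279. *Serpinf1* had 4309, 14862, 4401, 15171 and 4236 in VAD WT and 4697, 4812, 4422, 4897 and 5092 in VAS WT. *Nrp1* ran the other way, at 4035, 2602, 4093, 2502 and 3776 in VAD WT, its replicates 2 and 4 being the low ones. In the mean of replicates 2 and 4 over that of replicates 1, 3 and 5, *Kdr* differed 5.14-fold, *Flt1* 4.20-fold, *Serpinf1* 3.48-fold and *Flt4* 3.24-fold, *Pgf* 1.55-fold, *Vegfc* 1.49-fold, *Vegfa* 1.39-fold, *Vegfb* 0.957-fold and *Nrp1* 0.643-fold.

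With all 5 libraries the log2 fold changes of these genes against VAS WT were near 0 or wide, -0.30 for *Kdr* (95% interval -1.08 to 0.49), 0.04 for *Flt1* (-0.66 to 0.74), 0.57 for *Serpinf1* (-0.01 to 1.16) and -0.06 for *Nrp1* (-0.39 to 0.27). Without replicates 2 and 4, 8 of the 9 genes were called lower (20.3% of all genes), among them *Kdr* with a log2 fold change of -1.25 (adjusted p = 8.19e-08), *Flt1* with -0.79 (5.17e-05), *Flt4* with -0.68 (0.00555) and *Serpinf1* with -0.15 (0.0296). *Vegfb* (-0.18, 0.0498) and *Vegfc* (-0.77, 0.0157) were added to the called genes too, and *Nrp1* alone was not (0.20, 0.303). In the same fit 13 of 16 endothelial markers were called lower and 1 higher (median log2 fold change -0.66), and 14 of 15 RPE markers lower (median -1.43). Without replicates 1, 3 and 5, an alternative chosen after the values were seen, *Kdr* (1.12), *Flt1* (1.28), *Flt4* (1.02) and *Serpinf1* (1.65) were called higher on the same log2 scale (17.1% of all genes), while *Vegfa* remained lower at -0.80 (adjusted p = 4.21e-08). The fall of *Vegfa* was thus present in either set of VAD WT libraries, and the direction of *Kdr*, *Flt1*, *Flt4* and *Serpinf1* depended on which set was used.

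The diets under the *Stra6-/-* label were compared in the libraries labelled VAD *Stra6-/-* against VAS *Stra6-/-*. These groups also differed, without overlap, in *Ddx3y* (log2 fold change 9.56) and *Xist* (-2.04), so diet and sex cannot be told apart here. Of the 9 genes, 7 were higher and none was called lower, against 24.4% of all genes called higher and 53.2% called at all. All 4 ligands rose, as did *Kdr*, *Nrp1* and *Serpinf1*, and the same 7 had groups that did not overlap (24.5% of all genes in that direction). The median log2 fold change of the members was 1.30, and that of all genes -0.07. RPE markers were higher in 14 of 15, fibroblast markers in 7 of 8, macrophage markers in 6 of 6 and endothelial markers in 6 of 16, and surface epithelial markers were lower in 10 of 10.

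*Serpinf1* changed the most. Its values were 4270.3, 4501, 4412, 4418 and 4245 in VAS *Stra6-/-* and 26639.8, 25538, 25077, 23717 and 28498 in the libraries labelled VAD *Stra6-/-*. The lowest of the latter was over 5 times the highest of the former, and the log2 fold change was 2.56 (SE 0.28, adjusted p = 9.46e-08). *Vegfa* had 5328, 5424, 5367, 5029 and 4751 in the libraries labelled VAD *Stra6-/-*. Every one of these lay far above the highest value of the other 3 groups, and the log2 fold change was 1.30 (SE 0.09, adjusted p = 1.27e-10). *Pgf* had 1231, 1054, 1204, 887 and 1209 in the libraries labelled VAD *Stra6-/-*, a log2 fold change of 1.74 (SE 0.15, adjusted p = 3.40e-09), and did not overlap VAS *Stra6-/-*. *Vegfc* rose from 103 to 128 to 235 to 315, with a log2 fold change of 1.25 (adjusted p = 0.000103), and *Vegfb* from 1367 to 1549 to 2079 to 2516, with 0.67 (adjusted p = 4.32e-08).

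Among the receptors *Kdr* rose and *Flt1* and *Flt4* were not called. *Kdr* had 555, 508, 508, 633 and 511 in VAS *Stra6-/-* and 1545, 1744, 1874, 1916 and 1246 in the libraries labelled VAD *Stra6-/-*. These ranges lay far apart, and the log2 fold change was 1.60 (SE 0.38, adjusted p = 0.00109). *Flt1* had 755, 656, 692, 704 and 628 and 671, 819.9, 699, 856 and 657, overlapping ranges with a log2 fold change of 0.10 (SE 0.34, adjusted p = 0.827) and a 95% interval of -0.60 to 0.80. *Flt4* had 275, 402, 356, 319 and 323 and 179, 207, 164, 305 and 216, the latter being lower in 4 of 5 libraries than any VAS *Stra6-/-* library, with a log2 fold change of -0.67 (SE 0.30, adjusted p = 0.0709). The *Flt4* difference was called lower without VAD WT replicates 2 and 4 (adjusted p = 0.000966, 32.4% of all genes) and with only the 2 groups fitted (0.00570, 32.8%). Reads of the soluble form of *Flt1* are not separated from those of the full receptor in a count per gene.

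*Nrp1* had 3379, 3484, 3581, 3525 and 6246 in the libraries labelled VAD *Stra6-/-*, of which replicate 5 stood far above the other 4. Each of the 5 lay far above the highest value of VAS *Stra6-/-*, and the log2 fold change was 1.33 (SE 0.16, adjusted p = 3.08e-07).

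**Figure D3:**
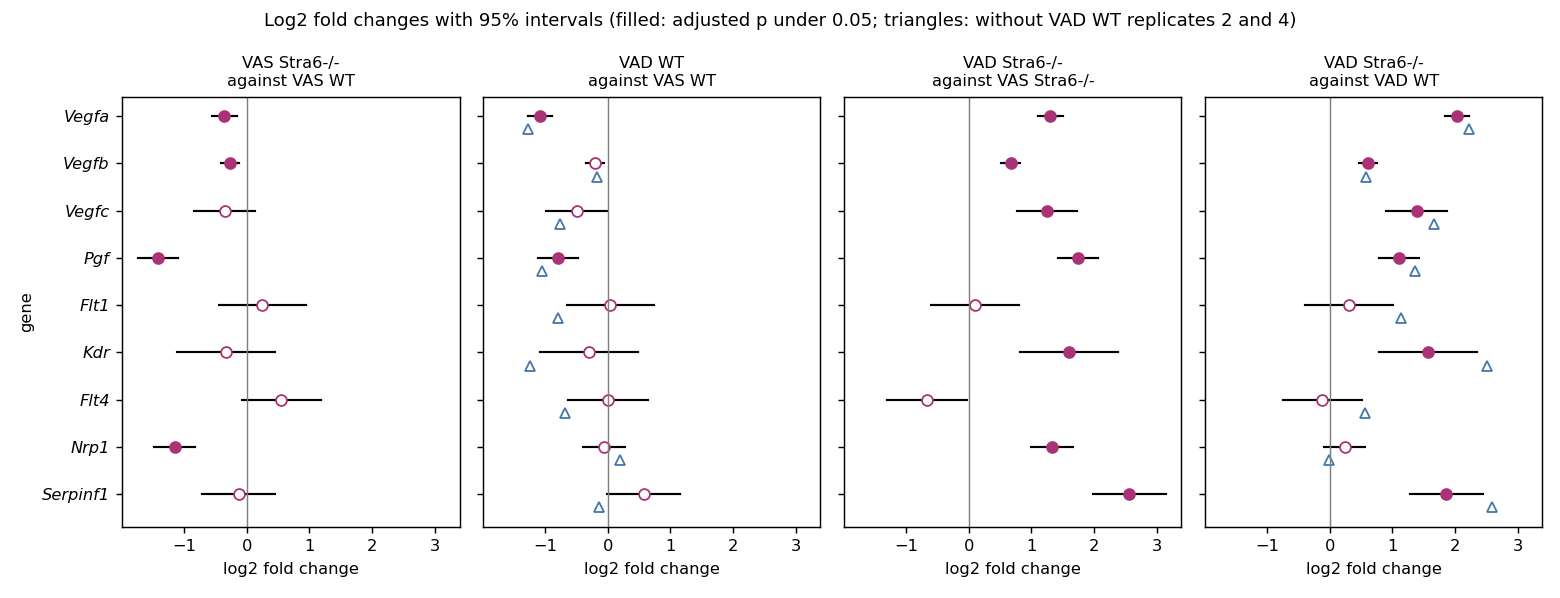
Log2 fold change of each gene in the 4 comparisons of 2 groups, with 95% intervals from limma. Filled circles have an adjusted p under 0.05, and triangles give the value without VAD WT replicates 2 and 4. All ligands lie below 0 in the first 2 panels and above 0 in the other two, and the triangles of *Kdr*, *Flt1* and *Flt4* are displaced from the circles wherever VAD WT enters.

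Between the genotypes on the deficient diet, the libraries labelled VAD *Stra6-/-* against VAD WT, 6 of 9 genes were higher and none was called lower, against 26.2% of all genes called higher and 55.9% called at all. The groups did not overlap in 5 of these, the exception being *Kdr*, against 18.3% of all genes. This comparison and the one before share the libraries labelled VAD *Stra6-/-*, and it shares VAD WT with the diet comparison in WT, so that they are not independent. Skeletal muscle markers were higher in 6 of 6, RPE markers in 14 of 15, fibroblast markers in 6 of 8 and macrophage markers in 5 of 6, with 1 lower in each of the last 2 lists, and surface epithelial markers were lower in 10 of 10. With all libraries the largest log2 fold change was that of *Vegfa*, 2.03 (SE 0.09, adjusted p = 1.24e-13), followed by *Serpinf1* with 1.86 (SE 0.28, adjusted p = 7.99e-06). The order rested on the VAD WT libraries used, since *Serpinf1* was at 2.58 and *Vegfa* at 2.22 without replicates 2 and 4 and at 0.78 and 1.74 without replicates 1, 3 and 5, each of these still called higher. *Kdr* (1.57, SE 0.38, adjusted p = 0.00125) overlapped because replicates 2 and 4 of VAD WT exceeded the lowest of the libraries labelled VAD *Stra6-/-*, that of replicate 5. Its log2 fold change was 2.52 without replicates 2 and 4 and 0.15 without replicates 1, 3 and 5 (adjusted p = 0.381). *Vegfc* (1.39, adjusted p = 2.90e-05), *Pgf* (1.11, adjusted p = 2.50e-06) and *Vegfb* (0.61, adjusted p = 1.77e-07) were higher too, *Pgf* being at 0.73 without replicates 1, 3 and 5. *Nrp1* (0.24, adjusted p = 0.213), *Flt1* (0.31, adjusted p = 0.458) and *Flt4* (-0.12, adjusted p = 0.772) did not pass the test. Without replicates 2 and 4, *Flt1* (1.14) and *Flt4* (0.56) were called higher, making 8 of 9 (30.7% of all genes). Without replicates 1, 3 and 5 both were called lower instead, *Flt1* at -0.93 (adjusted p = 2.55e-05) and *Flt4* at -1.14 (adjusted p = 7.28e-05), and *Nrp1* was called higher at 0.62 (adjusted p = 0.00512).

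The diet effect differed between the genotype labels for 7 of the 9 genes, all with a higher value under the *Stra6-/-* label (19.5% of all genes called in that direction and 44.2% in either, interaction term of limma). The term was also called for *Ddx3y* (11.1) and *Xist* (-7.79), and for 14 of 15 RPE markers, all higher, with a list median of 3.41. Sex therefore cannot be told apart from the interaction, and the part of RPE marker RNA in it was not tested. On the log2 scale the difference of the 2 diet effects was 2.53 (SE 0.22, adjusted p = 4.25e-09) for *Pgf*, 2.39 (SE 0.13, adjusted p = 5.42e-12) for *Vegfa* and 1.99 (SE 0.40, adjusted p = 0.000307) for *Serpinf1*. *Kdr* had 1.90 (adjusted p = 0.00598), *Vegfc* 1.74 (adjusted p = 0.000175), *Nrp1* 1.39 (adjusted p = 2.80e-05) and *Vegfb* 0.87 (adjusted p = 2.50e-07). The sign of the diet difference itself was opposite for *Vegfa* and *Pgf*, negative in WT and positive under the *Stra6-/-* label. *Flt1* (0.06, adjusted p = 0.932) and *Flt4* (-0.67, adjusted p = 0.224) showed no difference that passed the test, but *Flt1* was called without VAD WT replicates 2 and 4 (0.89, adjusted p = 0.000128, with 25.7% of all genes called in that direction). Without replicates 1, 3 and 5 the interaction was negative and called for both, at -1.18 for *Flt1* (adjusted p = 2.49e-05) and -1.69 for *Flt4* (adjusted p = 1.24e-05). It was 2.85 for *Kdr* and 2.71 for *Serpinf1* without replicates 2 and 4, and 0.48 and 0.91 without replicates 1, 3 and 5, called in each case.

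Across the 4 groups *Vegfa* formed 4 levels in the order VAD WT, VAS *Stra6-/-*, VAS WT and the libraries labelled VAD *Stra6-/-*, with no overlap between neighbours. *Pgf* had VAS *Stra6-/-* lowest, slightly overlapping VAD WT, then VAS WT and the libraries labelled VAD *Stra6-/-*, which overlapped. *Nrp1* was lowest in VAS *Stra6-/-*, and the other 3 groups overlapped. *Serpinf1* was highest in the libraries labelled VAD *Stra6-/-*, and the VAS groups and VAD WT replicates 1, 3 and 5 lay together between 4236 and 5092, with VAD WT replicates 2 and 4 in between. For *Kdr* the order was VAS *Stra6-/-* and VAS WT, which overlapped, and the libraries labelled VAD *Stra6-/-* above both, with VAD WT spread from below the first to within the last. *Vegfb* and *Vegfc* were highest in the libraries labelled VAD *Stra6-/-* without overlap, and among the other 3 groups neighbours in the order of means overlapped. For *Flt4* every neighbouring pair in the order the libraries labelled VAD *Stra6-/-*, VAS WT, VAD WT and VAS *Stra6-/-* overlapped. *Flt1* gave no order, since the VAD WT libraries spanned all other groups.

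*Vegfa* and *Serpinf1* were also set against each other within each library, as a description only. The *Serpinf1* value was 1.62, 1.79, 1.67, 2.03 and 1.80 times that of *Vegfa* in the 5 VAS WT libraries and 2.01, 2.24, 2.11, 2.04 and 2.03 times in those of VAS *Stra6-/-*. On the VAD diet it was 4.10, 10.1, 3.87, 9.40 and 3.69 times in VAD WT and lay between 4.67 and 6.00 in the libraries labelled VAD *Stra6-/-*. Both VAD groups thus had more *Serpinf1* per *Vegfa* than any VAS library. In VAD WT replicates 1, 3 and 5 *Vegfa* was low beside a *Serpinf1* value near that of VAS WT, and in the libraries labelled VAD *Stra6-/-* both genes were higher than in every VAS library.

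**Figure D4:**
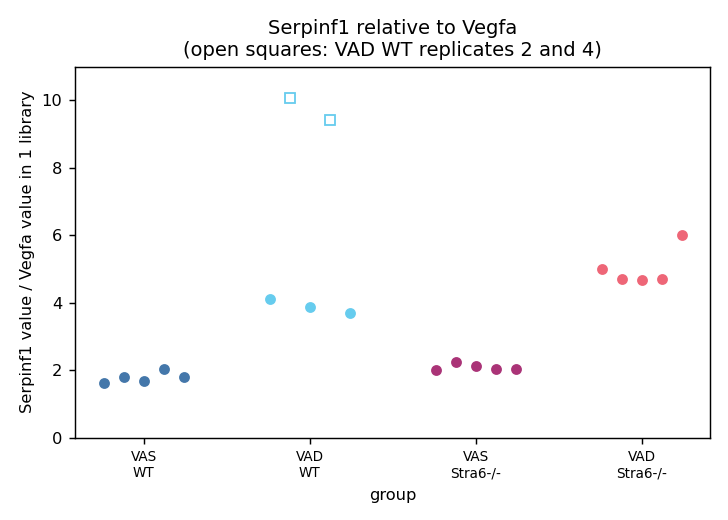
*Serpinf1* value divided by *Vegfa* value in each of the 20 libraries, by group. Points are libraries and open squares VAD WT replicates 2 and 4. The 10 VAS libraries lie between 1.62 and 2.24 and the 10 VAD libraries between 3.69 and 10.1.

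The mix of ligands and of receptors was compared per kb. *Vegfb* made up 52.2% ± 2.64 (SD, n = 5) of the 4 ligands in VAS WT, 58.2% ± 1.17 in VAS *Stra6-/-*, 64.5% ± 5.55 in VAD WT and 45.8% ± 1.94 in the libraries labelled VAD *Stra6-/-*. The share of *Vegfa* was 30.1% ± 2.16, 31.4% ± 1.19, 20.2% ± 2.55 and 38.4% ± 2.32 in the same order, lowest in VAD WT and highest in the libraries labelled VAD *Stra6-/-*. Of the 3 tyrosine kinase receptors, *Kdr* held 51.7% ± 1.94 in VAS WT, 39.6% ± 2.78 in VAS *Stra6-/-*, 46.1% ± 4.87 in VAD WT and 69.4% ± 3.49 in the libraries labelled VAD *Stra6-/-*. *Flt4* had 18.9% ± 2.05, 26.9% ± 3.79, 20.9% ± 3.63 and 9.86% ± 2.17. The receptor mix of the libraries labelled VAD *Stra6-/-* was therefore the one richest in *Kdr* and poorest in *Flt4*.

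Because RPE and endothelial marker RNA differed between the groups, *Vegfa* and *Serpinf1* were also expressed relative to the mean log2 value of the 15 RPE markers, and the 4 receptors relative to that of the 16 endothelial markers. These ratios were compared over libraries with exact permutation tests, 24 in all with Benjamini-Hochberg adjustment. With 5 libraries in either group the smallest two-sided p is 0.00794. *Nrp1* is made by other cells too, so its ratio to endothelium is only a reference. The genes closest in profile to *Serpinf1* include the fibroblast marker *Dcn* (below), so its ratio to RPE is only a reference too. The gene closest to *Kdr* was the fibroblast marker *Fmod* (below), so the ratio of *Kdr* to endothelium is also only a reference. The part of fibroblast RNA in the *Kdr* ratio was not tested.

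Relative to RPE markers, *Vegfa* was at -0.11, -0.17, -0.19, -0.27 and -0.25 in the VAS WT libraries and at -0.68, -0.73, -0.64, -0.62 and -0.69 in those of VAS *Stra6-/-*. The VAS *Stra6-/-* values were all lower, with a difference of -0.47 on the log2 scale (exact p = 0.00794, adjusted p = 0.0147). The ratio was -1.32, -1.25, -1.31, -1.36 and -1.54 in the libraries labelled VAD *Stra6-/-*. It lay below VAS *Stra6-/-*, with a difference of -0.68, and below VAD WT, with -1.13 (exact p = 0.00794 and adjusted p = 0.0147 for each), so the rise of *Vegfa* in the libraries labelled VAD *Stra6-/-* was smaller than that of the RPE markers. With the median of the markers in place of their mean the difference was -1.32 from VAS *Stra6-/-* and -1.44 from VAD WT, and that of VAS *Stra6-/-* from VAS WT was -0.31, with the same exact p. In VAD WT the ratio was -0.07, -0.60, 0.03, -0.48 and -0.02 and the difference from VAS WT -0.03 (exact p = 0.825). Replicates 1, 3 and 5 lay above every VAS WT library, by 0.18 in the mean (exact p = 0.0357, the smallest that 3 against 5 allow), and replicates 2 and 4 below.

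*Serpinf1* relative to RPE markers was 0.55 to 0.75 in VAS WT, 0.32 to 0.44 in VAS *Stra6-/-*, 1.86 to 2.75 in VAD WT and 0.88 to 1.05 in the libraries labelled VAD *Stra6-/-*. No 2 of these ranges overlapped. The differences were 1.63 for VAD WT against VAS WT, where the RPE markers were lower, and -1.29 for the libraries labelled VAD *Stra6-/-* against VAD WT. That of the libraries labelled VAD *Stra6-/-* against VAS *Stra6-/-* was 0.58 (exact p = 0.00794 and adjusted p = 0.0147 for each of the 3). This last difference was -0.06 (exact p = 0.437) when the median of the markers took the place of their mean. The difference of VAS *Stra6-/-* against VAS WT went from -0.24 to -0.08 (adjusted p = 0.0816), so both depended on how the markers were summarised. Fibroblast markers, which moved with *Serpinf1* in VAD WT replicates 2 and 4 and in the libraries labelled VAD *Stra6-/-*, are given above.

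Among the receptors, *Kdr* relative to endothelial markers was 0.53, 0.76, 0.87, 0.85 and 0.28 in the libraries labelled VAD *Stra6-/-* and -0.53, -0.70, -0.66, -0.43 and -0.69 in VAS *Stra6-/-*. The rise of *Kdr* exceeded that of the endothelial markers by 1.26 (exact p = 0.00794, adjusted p = 0.0147). Against VAD WT, at -1.31, 0.11, -1.20, 0.14 and -0.93, the difference was 1.30 with the same p. *Flt4* relative to the same markers was -2.20 to -1.73 in VAS WT, -1.54 to -1.04 in VAS *Stra6-/-* and -2.63 to -1.80 in the libraries labelled VAD *Stra6-/-*, a difference of 0.70 between VAS *Stra6-/-* and VAS WT and of -1.01 for the libraries labelled VAD *Stra6-/-* against VAS *Stra6-/-* (exact p = 0.00794 and adjusted p = 0.0147 for each). *Nrp1* differed by -0.996 in VAS *Stra6-/-* against VAS WT and by 0.99 in the libraries labelled VAD *Stra6-/-* against VAS *Stra6-/-*, with the same p. *Flt1* was higher by 0.40 in VAS *Stra6-/-* against VAS WT (exact p = 0.0159, adjusted p = 0.0272), but the p was 0.167 with the median of the markers, and the adjusted p was 0.0508 to 0.0544 when any 1 of 8 of these 10 libraries was left out. In VAD WT against VAS WT none of the 4 receptors differed from the markers past the threshold, with exact p from 0.492 for *Kdr* to 0.984 for *Nrp1*. Without VAD WT replicates 2 and 4, *Kdr* stood lower relative to the markers (-0.72) and *Nrp1* higher (0.72), each with an exact p of 0.0357, the smallest possible there. *Flt1* (-0.27, exact p = 0.214) and *Flt4* (-0.16, exact p = 0.429) did not then differ from the markers past the threshold.

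**Figure D5:**
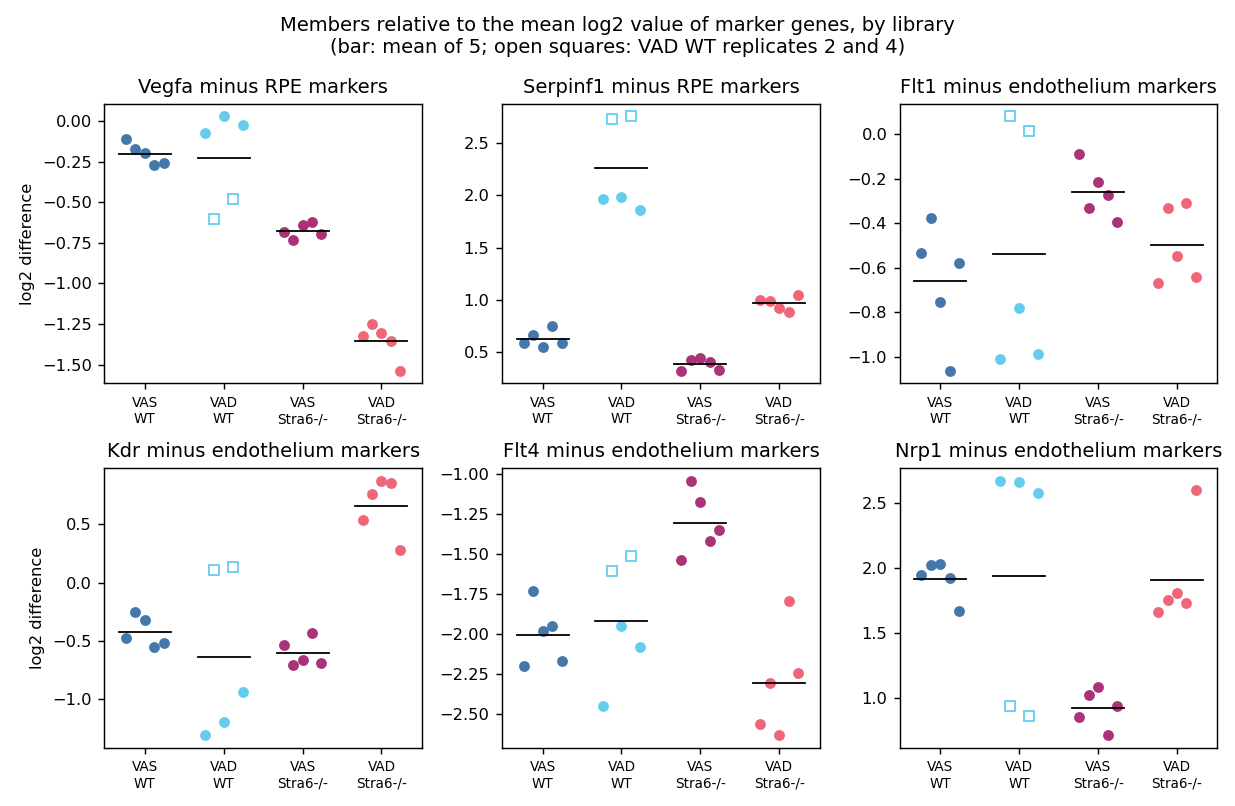
Log2 value of a gene minus the mean log2 value of RPE markers (*Vegfa*, *Serpinf1*) or endothelial markers (*Flt1*, *Kdr*, *Flt4*, *Nrp1*) in each library. Points are libraries, bars are means of 5, and open squares are VAD WT replicates 2 and 4. The libraries labelled VAD *Stra6-/-* are lowest for *Vegfa* and highest for *Kdr*.

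The genes whose profile over the 20 libraries was closest to that of a member were found by the root mean square difference of centred log2 values among 12299 genes with a mean value of at least 100. For *Vegfa* the closest were *Tspan10* (0.13) and *C1qtnf5* (0.16), where *Vegfa* itself varied by 0.74 about its mean. For *Serpinf1* they were *Igfbp6* (0.15), *Dcn* (0.17) and *Cpxm1* (0.20) beside a variation of 1.12. *Kdr*, with a variation of 0.89, was less closely matched, by *Fmod* (0.26), *Reck* (0.26) and *Fut10* (0.27). *Dcn* and *Fmod* also stand on the list of fibroblast markers.

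The wider pathway was followed with 7 lists of genes that do not include the members, except that *Flt1* is also listed among the endothelial genes that respond to VEGF. *Nos3* and *Angpt2* are on 2 of these lists, and *Tek*, *Tie1*, *Eng* and *Pdgfrb* are also markers of cell types. In VAS *Stra6-/-* against VAS WT, signal transduction genes downstream of the receptors were called higher in 14 of 30 and lower in 0, with a median log2 fold change of 0.28 and 15.9% of all genes called higher. *Nfatc2*, a calcium-dependent transcription factor, rose the most, by 1.317 on the log2 scale (adjusted p = 1.07e-07). Hypoxia sensors and targets of hypoxia-inducible factors (HIF) were higher in 5 of 15 and lower in 0. These 5 were *Adm*, the vasodilator adrenomedullin, with 1.67 (adjusted p = 0.000222), *Epas1*, the HIF-2 alpha subunit, with 0.51 (adjusted p = 5.28e-06), *Egln1*, a HIF prolyl hydroxylase, with 0.41 (adjusted p = 0.0114), *Ndrg1* with 0.41 (adjusted p = 0.00416) and *Ldha*, lactate dehydrogenase, with 0.17 (adjusted p = 0.0449). *Vegfa*, itself a HIF target, fell in the same comparison.

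In that comparison the endothelial genes known to respond to VEGF were higher in 3 of 12, namely *Apln* (0.73, adjusted p = 0.0495), *Nos3*, endothelial nitric oxide synthase (0.57, adjusted p = 0.0115), and *Rcan1*, a calcineurin inhibitor (0.58, adjusted p = 1.06e-05), and none was called lower. Of 12 angiopoietin, PDGF and TGF-beta partners, 5 were lower and 1 higher, where 10.8% of all genes were lower and 15.9% higher. The largest fall was that of *Angpt1*, the ligand of the receptor encoded by *Tek*, at -1.08 (adjusted p = 0.0109), and the gene called higher was *Fgf2* at 2.16 (adjusted p = 0.0439). PEDF receptors *Lrp6* (0.63, adjusted p = 0.0262) and *Pnpla2* (0.35, adjusted p = 0.00480), 2 of 5 listed, were higher, and *Serpinf1* itself was not called. Of 10 other inhibitors of vessel growth, *Col18a1*, the source of endostatin (-0.35, adjusted p = 0.0232), and *Col4a3*, the source of tumstatin (-0.51, adjusted p = 0.0415), were lower and *Serpinb5*, maspin (0.72, adjusted p = 0.0372), was higher. Among 9 other family members and neuropilin partners, the semaphorin receptors *Plxna1* (0.69, adjusted p = 0.000162) and *Plxnd1* (-0.64, adjusted p = 0.00275) moved in opposite directions.

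In VAD WT against VAS WT few of the wider genes were called, with 3.29% of all genes called higher. Signal transduction genes were higher in 2 and lower in 1 of 30, HIF-related genes lower in 1 of 15 and higher in 0. The called ones were *Nfatc2* (0.62, adjusted p = 0.00216), *Nos3* (0.54, adjusted p = 0.0395) and *Mapkapk2* (-0.23, adjusted p = 0.0169), and the glucose transporter *Slc2a1* (-0.59, adjusted p = 2.24e-05). *Col4a3* fell by more than any other listed inhibitor, with -1.77 (adjusted p = 1.05e-06), beside *Col18a1* with -0.54 (adjusted p = 0.00317), while *Thbs2*, thrombospondin-2, was higher with 0.94 (adjusted p = 0.0281). *Tgfb2* (-0.73, adjusted p = 0.0378) and the VEGF-responsive *Egr3* (-2.29, adjusted p = 0.0126) were lower, and *Sema3a* (0.78, adjusted p = 0.0196), *Sema3f* (0.29, adjusted p = 0.0262) and *Plxdc2* (0.33, adjusted p = 0.0431) higher. Without VAD WT replicates 2 and 4 *Nos3* (0.18) and *Sema3a* (0.47) were not called, the log2 fold change was 0.27 for *Thbs2*, -0.29 for *Col18a1*, -1.26 for *Tgfb2*, -3.45 for *Egr3* and 0.54 for *Plxdc2*, all still called, and more genes were called lower, 9 of 12 angiopoietin, PDGF and TGF-beta partners and 7 of 15 HIF-related genes among them, where 20.3% of all genes were.

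In the libraries labelled VAD *Stra6-/-* against VAS *Stra6-/-* the wider lists moved in both directions. Signal transduction genes were higher in 4 and lower in 10 of 30 (median log2 fold change -0.07), where 24.4% of all genes were higher and 28.8% lower, with *Prkcb*, a protein kinase C isoform, at 0.95 (adjusted p = 1.13e-06) and *Hspb1*, a small heat shock protein, at -2.60 (adjusted p = 5.30e-09). HIF-related genes were higher in 5 and lower in 6 of 15, with *Slc2a1* at 1.49 (adjusted p = 5.05e-13) and *Egln3*, another HIF prolyl hydroxylase, at -5.18 (adjusted p = 8.81e-13). Inhibitors of vessel growth were higher in 7 of 10 and lower in 1 (median 0.98), with *Thbs2* at 2.23 (adjusted p = 3.08e-07) and *Serpinb5* at -5.26 (adjusted p = 1.59e-13). Of the angiopoietin, PDGF and TGF-beta partners 6 of 12 were higher and 1 lower, *Angpt1* at 3.27 (adjusted p = 6.89e-09) and *Tgfb1* at -0.39 (adjusted p = 0.0170). *Esm1*, a marker of VEGF-stimulated tip cells, rose by 2.04 (adjusted p = 2.08e-05) and *Rcan1* by 0.77 (adjusted p = 3.27e-08), while *Nos3* (-0.71, adjusted p = 0.000833) and *Unc5b* (-1.23, adjusted p = 4.91e-05) fell, the other listed VEGF-responsive genes not being called. The neuropilin ligands diverged, *Sema3c* being higher (3.42, adjusted p = 5.20e-15) and *Sema3f* lower (-1.21, adjusted p = 2.57e-11), with *Gipc1* (-1.47, adjusted p = 2.50e-07) and *Plxna1* (-0.65, adjusted p = 7.42e-05) lower too. PEDF receptors *Lrp6* (0.72, adjusted p = 0.00542) and *Pnpla2* (0.27, adjusted p = 0.0119) were higher and *Plxdc2* (-0.69, adjusted p = 5.58e-06) was lower. *Serpinb5* is also a gene of surface epithelium, whose markers were low in the libraries labelled VAD *Stra6-/-*. Surface epithelial markers were lower in 10 of 10 and RPE markers higher in 14 of 15, here and against VAD WT. The part of these shifts in the falls of *Egln3* and *Hspb1* and the rise of *Slc2a1* was not tested.

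In the libraries labelled VAD *Stra6-/-* against VAD WT the counts were 12 higher and 9 lower of 30 signal transduction genes, 7 and 4 of 15 HIF-related genes, 6 and 2 of 12 VEGF-responsive genes, 7 and 1 of 10 inhibitors, 5 and 0 of 12 angiopoietin, PDGF and TGF-beta partners, 2 and 2 of 5 PEDF receptors and 4 and 3 of 9 other family members and neuropilin partners, where 26.2% of all genes were higher and 29.6% lower. Without VAD WT replicates 2 and 4, 9 of the 12 partners, 8 of the 12 VEGF-responsive genes and 14 of the 30 signal transduction genes were called higher, where 30.7% of all genes were. With all libraries, the largest rises of single lists included *Sema3c* (3.85, adjusted p = 1.20e-15), *Timp3*, an inhibitor of the VEGF receptor encoded by *Kdr* (3.12, adjusted p = 5.20e-08), *Angpt1* (2.73, adjusted p = 1.11e-07), *Cxcr4* (2.12, adjusted p = 1.85e-05) and *Slc2a1* (2.11, adjusted p = 2.46e-15). The largest falls included *Serpinb5* (-4.96, adjusted p = 4.77e-13), *Egln3* (-4.78, adjusted p = 3.39e-12) and *Hspb1* (-2.44, adjusted p = 1.53e-08).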

How the data were processed

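Bulk RNA-seq of the RPE-choroid was analysed in 20 samples, 5 per group, each from 1 mouse by the study's account. Per the submitters' processing notes and the study's methods, the authors aligned reads with STAR 2.5.3a to the mouse genome (GRCm38), estimated gene counts with RSEM 1.2.30 and normalized them with DESeq2 1.32.0. The deposited signal values are those counts divided by 1 size factor per sample (normalized values), and 100% of the values above 0 were whole multiples of 1 read (relative tolerance 1e-06). Reads were taken as recovered for 19 of the 20 columns, since the value of 1 read in the other lay so near 1 that recovery was not claimed. Gene counts do not separate transcript forms, and reads shared by similar genes depend on the authors' counting.

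Genes with at least 5 recovered reads in all (18807 of 24411) were tested with limma 3.58.1 (R 4.3.3) on log2(value + 1), with a trend, a mean for each group and Benjamini-Hochberg adjustment. All 20 libraries shared 1 spread, and an adjusted p under 0.05 was a call. A fold change on this scale understates that of low genes. Intervals are from the model at 95%. Depth was 13331903 to 21878614 reads per library. Ratios to markers were compared with exact permutation tests. Alternatives were another pseudocount, filter or scaling, edgeR 4.0.16 and DESeq2 1.42.0 on the recovered reads of 19 libraries (VAD *Stra6-/-* replicate 1 left out), only the groups compared, a replicate block, a threshold on fold change and leaving out libraries. No pair of replicates agreed within sampling noise. The scripts were tested on simulated data.

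The members, the gene lists and the alternatives were chosen with earlier results of these data known. Named beside the members were, per list and comparison, the called genes with the largest rise and the largest fall (all called genes where there were 5 or fewer), *Stra6*, *Xist* and *Ddx3y* as checks, and the 3 genes with the profile closest to *Vegfa*, *Kdr* and *Serpinf1*, of which 1 is not reported here. Lengths and positions were taken from GENCODE vM21 and start sites from RefSeq. Both symbols of *Vegfd* were listed, of which 1 was in the table. No protein sequences were used here.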

Additional observations from a re-analysis of the deposited data

Results flagged for a closer look

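Single samples far from the rest of their group were sought in 64 groups of 5 values, with Dixon's ratio of the gap to the range and its 95% critical value of 0.71. Chance alone gives such a sample in about 1 of 20 groups, and 5 were found. Replicate 5 of the libraries labelled VAD *Stra6-/-* was among 3 of them, with an *Nrp1* value of 6246 (ratio 0.930), *Nrp1* at 2.61 relative to the endothelial markers on the log2 scale (0.846) and a log2 ratio of *Vegfa* to *Serpinf1* of -2.58 (0.729). *Vegfc* stood at 45.5 in VAD WT replicate 5 (0.711), and *Nrp1* relative to the endothelial markers at 1.67 in VAS WT replicate 5 (0.7102). Without the libraries labelled VAD *Stra6-/-* replicate 5 no called member lost its call in any comparison.

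The diet effect differed between the genotype labels, by the interaction term of limma, for 7 genes. The diet effect under the *Stra6-/-* label minus that in WT was 2.39 for *Vegfa*, 0.87 for *Vegfb*, 1.74 for *Vegfc*, 2.53 for *Pgf*, 1.90 for *Kdr*, 1.39 for *Nrp1* and 1.99 for *Serpinf1* on the log2 scale. Under that label *Stra6* was higher in the VAD libraries than in the VAS libraries, RPE marker sums were 595747 to 642878 against 155158 to 162632, and *Ddx3y* was at 741 to 969.7 against 0 to 1.02. The part of these differences in the interaction was not tested.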

How the results depend on the processing

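The number of members called was 4 in VAS *Stra6-/-* against VAS WT, and became 8 with only the 2 groups fitted, 7 without VAD WT replicates 2 and 4 and 2 with a log2 fold change beyond 1 required as well. Of all 18807 genes, 5010 were called in the main fit, 8208 with only the 2 groups and 7524 without those replicates. For VAD WT against VAS WT the number of members was 2, and became 1 with only the 2 groups, 8 without replicates 2 and 4, 7 without replicates 1, 3 and 5 (an alternative chosen after seeing the data) and 1 with the fold threshold. Of all 18807 genes, 1652 were called in the main fit and 639 with only the 2 groups. Without replicates 2 and 4 it was 7124, and without replicates 1, 3 and 5 it was 6164. The share of all genes with the fold threshold was not counted. Leaving out 1 library at a time the number of members called stayed between 4 and 4 in the first comparison, 2 and 3 in the second, 7 and 8 in the libraries labelled VAD *Stra6-/-* against VAS *Stra6-/-*, 6 and 6 in the libraries labelled VAD *Stra6-/-* against VAD WT, and 7 and 7 for the interaction. Of 1053 values of log2 fold changes under the alternatives, 994 kept direction and call, 32 turned direction, 25 gained and 2 lost a call. In VAD WT against VAS WT the fold change turned without replicates 2 and 4 for *Flt1* (-0.79), *Flt4* (-0.68), *Nrp1* (0.20) and *Serpinf1* (-0.15), for *Flt4* with upper quartile scaling (-0.023), and for *Kdr* in edgeR (0.18), in DESeq2 (0.17) and without replicates 1, 3 and 5 (1.12). In the libraries labelled VAD *Stra6-/-* against VAD WT it turned for *Flt1* in edgeR (-0.045), in DESeq2 (-0.015) and without replicates 1, 3 and 5 (-0.93), and without replicates 2 and 4 for *Flt4* (0.56) and *Nrp1* (-0.016). In the interaction it turned for *Flt1* in edgeR (-0.25), in DESeq2 (-0.24) and without replicates 1, 3 and 5 (-1.18), and for *Flt4* without replicates 2 and 4 (0.012). Leaving out 1 library at a time gave, in VAD WT against VAS WT, -0.27 to 0.27 for *Flt1*, -0.27 to 0.25 for *Flt4* and -0.13 to 0.043 for *Nrp1*, in the libraries labelled VAD *Stra6-/-* against VAD WT -0.36 to 0.15 for *Flt4*, and -0.17 to 0.38 for *Flt1* in the interaction. The values relative to markers turned without replicates 2 and 4 in VAD WT against VAS WT for *Flt1* (-0.27), *Flt4* (-0.16) and *Vegfa* (0.18), and with the median of the markers for *Flt1* in the libraries labelled VAD *Stra6-/-* against VAD WT (-0.18) and for *Serpinf1* in the libraries labelled VAD *Stra6-/-* against VAS *Stra6-/-* (-0.061). With 1 library left out they ranged, in VAD WT against VAS WT, from -0.030 to 0.24 for *Flt1*, -0.016 to 0.22 for *Flt4*, -0.16 to 0.29 for *Nrp1* and -0.094 to 0.065 for *Vegfa*, and in the libraries labelled VAD *Stra6-/-* against VAD WT from -0.080 to 0.19 for *Flt1* and -0.30 to 0.15 for *Nrp1*. None of the members turned in these ways in VAS *Stra6-/-* against VAS WT, and the cause of the changes was not tested. On the recovered reads edgeR called 4880, 1529, 9455 and 9940 of all genes in the 4 comparisons of 2 groups, in the order of the report, and 7947 for the interaction, where limma called 5010, 1652, 10004, 10504 and 8319. The replicate numbers did not pair the samples, since only 3 of 30 correlations between same-numbered libraries exceeded 0.1 and 3 of 20 libraries correlated best with their own number. With the replicate block *Flt4* was also called lower in the libraries labelled VAD *Stra6-/-* against VAS *Stra6-/-* (-0.67, adjusted p = 0.0318), and no other member's call changed. The depth of 13331903 to 21878614 reads bears most on *Vegfc*, *Flt4* and *Flt1*, the members with the lowest values, and intervals and calls of VAD WT rest on 5 libraries of which replicates 2 and 4 stand apart.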

Other observations

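Markers of cell types beside RPE and endothelium were also counted. Of all genes, 24.4% were called higher and 28.8% lower in the libraries labelled VAD *Stra6-/-* against VAS *Stra6-/-*, and 26.2% and 29.6% against VAD WT. In VAS *Stra6-/-* against VAS WT the shares were 15.9% and 10.8%, and in VAD WT against VAS WT 3.29% and 5.50%. Of 8 pericyte and smooth muscle markers, 5 were higher and 1 lower in the libraries labelled VAD *Stra6-/-* against VAS *Stra6-/-*, 6 and 1 against VAD WT, 1 and 2 in VAS *Stra6-/-* against VAS WT, and 1 and 1 in VAD WT against VAS WT. Lymphatic endothelial markers, of interest beside *Flt4*, were called in neither direction in VAS *Stra6-/-* against VAS WT (0 of 6 by limma, also at an unadjusted p under 0.05), where *Flt4* was called higher with only the 2 groups fitted and without VAD WT replicates 2 and 4, and 2 were higher and 2 lower in the libraries labelled VAD *Stra6-/-* against VAS *Stra6-/-*. Rod markers were lower in 3 and 4 of 6 in the libraries labelled VAD *Stra6-/-* against VAS *Stra6-/-* and VAD WT, and Muller glia markers were higher in 3 and 5 of 6. The part of these cell types in the values of the members was not tested.

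In the libraries labelled VAD *Stra6-/-* against VAD WT further vessel genes were called. The angiopoietin receptor *Tek* had a log2 fold change of 0.88 (adjusted p = 0.000114), *Tgfb2* 1.96 (adjusted p = 1.05e-07), the TGF-beta family receptor *Acvrl1* 0.48 (adjusted p = 0.00887) and *Pdgfa* 0.61 (adjusted p = 0.0165), the last being 0.14 without VAD WT replicates 2 and 4 (adjusted p = 0.314) and *Acvrl1* then 0.83. The PEDF receptors split, with *Lrp6* at 1.57 (adjusted p = 1.17e-06) and *Pnpla2* at 0.73 (adjusted p = 3.11e-07) beside *Plxdc2* at -0.80 (adjusted p = 7.50e-07) and *Rpsa*, the laminin receptor, at -0.61 (adjusted p = 0.00329), or -0.98 without those replicates. The neuropilin adaptor *Gipc1* was at -1.61 (adjusted p = 6.25e-08) and the netrin receptor *Unc5b* at -0.81 (adjusted p = 0.00289), the latter being -0.44 without them, and the largest fall and rise among signal transduction genes were those of *Hspb1* (-2.44, adjusted p = 1.53e-08) and *Prkcb* (0.93, adjusted p = 1.59e-06).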
